A study of Drosophila melanogaster with 3 samples.

Results

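In whole embryos of Drosophila melanogaster that carry a CG15011-GFP fusion, 232 of the 3237 peaks in the authors' optimal set (7.17%) had their summit 0 to 100 bp upstream of the nearest protein-coding transcription start site (TSS). These core promoter peaks were chosen by position alone, from the pooled summit and the strand of the nearest gene, and they belong to 230 genes. Chromatin immunoprecipitation followed by sequencing was done on 3 biological replicates, all of 1 group. Each was a collection of mixed-sex embryos aged 0 to 24 hours from a transgenic line that stably makes CG15011 fused at its C terminus to green fluorescent protein (GFP), with chromatin sonicated to 200 to 800 bp. The sources used here do not give the promoter that drives the transgene, and whole embryos mix all cell types, so a peak cannot be assigned to any of them. A text label calls the samples an input control, whereas the deposited notes derive each replicate's peak list from its own alignment and a separate control alignment shared by every list. The samples were therefore read as immunoprecipitated libraries, and the control alignment was not analysed here.

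A core promoter is the short stretch of DNA around the TSS where RNA polymerase II and the general transcription factors assemble. In Drosophila, promoters of genes used in most cells often carry the DNA replication-related element (DRE) or the sequence known as Ohler motif 1, and many lack a TATA box. Genes for ribosomal proteins start in a run of pyrimidines called the TCT initiator, in place of the usual initiator. CG15011 is a protein for which the annotation used here gives no function.

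The sequences of 9 promoters with strong core promoter peaks are shown first, because they include the motifs and the base composition that the results describe. Each runs 5′ to 3′ on the gene's strand from 100 bp upstream of the TSS through the first 10 transcribed bases (RefSeq Release 6, the dm6 assembly). Capitals mark matches to the DRE, the E-box, Ohler motif 7 or the TCT initiator. Matches to the other motifs searched are not marked and can lie in lower-case bases. They were chosen by signal and by what they hold, among peaks with no other transcript in the 100 bp upstream. The 5 ribosomal protein promoters are RpS27 (chr3R:25247505-25247614, minus strand) with an E-box in capitals, RpS10b (chrX:19597931-19598040, plus strand) and RpL28 (chr3L:3222951-3223060, minus strand) with a DRE, RpL14 (chr3L:8600906-8601015, plus strand) with 2 matches to Ohler motif 7 and a TCT initiator, and RpL23A (chr3L:1668645-1668754, minus strand) with a TCT initiator. The others are eEF1gamma (chr3R:29220072-29220181, plus strand) with a DRE, and Ugalt (chrX:2703843-2703952, minus strand), CG13390 (chr2L:8376788-8376897, minus strand) and Tcs5 (chr3L:5139386-5139495, minus strand), in which none of the motifs marked elsewhere in this set was found.
RpS27: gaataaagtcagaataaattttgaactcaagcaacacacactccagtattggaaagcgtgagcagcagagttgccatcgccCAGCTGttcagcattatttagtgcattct
RpS10b: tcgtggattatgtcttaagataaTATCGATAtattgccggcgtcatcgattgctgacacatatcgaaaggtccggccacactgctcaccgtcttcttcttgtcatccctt
RpL28: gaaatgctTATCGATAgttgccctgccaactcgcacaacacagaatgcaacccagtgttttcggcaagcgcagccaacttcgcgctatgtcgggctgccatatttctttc
RpL14: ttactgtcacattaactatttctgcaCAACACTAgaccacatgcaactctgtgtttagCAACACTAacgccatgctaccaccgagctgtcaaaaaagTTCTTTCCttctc
RpL23A: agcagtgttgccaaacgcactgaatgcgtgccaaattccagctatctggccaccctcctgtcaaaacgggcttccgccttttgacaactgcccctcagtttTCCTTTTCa
eEF1gamma: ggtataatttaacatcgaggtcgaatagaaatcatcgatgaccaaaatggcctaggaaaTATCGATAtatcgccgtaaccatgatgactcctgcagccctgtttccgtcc
Ugalt: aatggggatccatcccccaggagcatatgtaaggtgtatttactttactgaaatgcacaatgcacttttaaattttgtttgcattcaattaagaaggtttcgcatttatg
CG13390: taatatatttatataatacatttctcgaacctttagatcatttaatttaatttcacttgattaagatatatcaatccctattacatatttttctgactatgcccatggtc
Tcs5: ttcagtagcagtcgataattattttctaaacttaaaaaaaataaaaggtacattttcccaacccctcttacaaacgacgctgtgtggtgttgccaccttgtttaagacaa

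Over the optimal set as a whole, peaks were densest 76 to 200 bp upstream of a TSS, and the core promoter peaks form the inner slope of that distribution. A further 836 optimal summits (25.8% of the set) lay more than 100 and at most 500 bp upstream and are called the upstream peaks, 210 lay 1 to 500 bp downstream, and 1959 lay elsewhere. Within the 100 bp, the innermost 10 bp held 23 summits, the outermost 11 bp (90 to 100 bp upstream) held 37, and 30 to 39 bp upstream held the fewest with 8. The median summit lay 62.0 bp upstream. Of the 232 peaks, 168 had the width of 444 bp that most optimal peaks share and 64 were narrower.

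**Figure D1:**
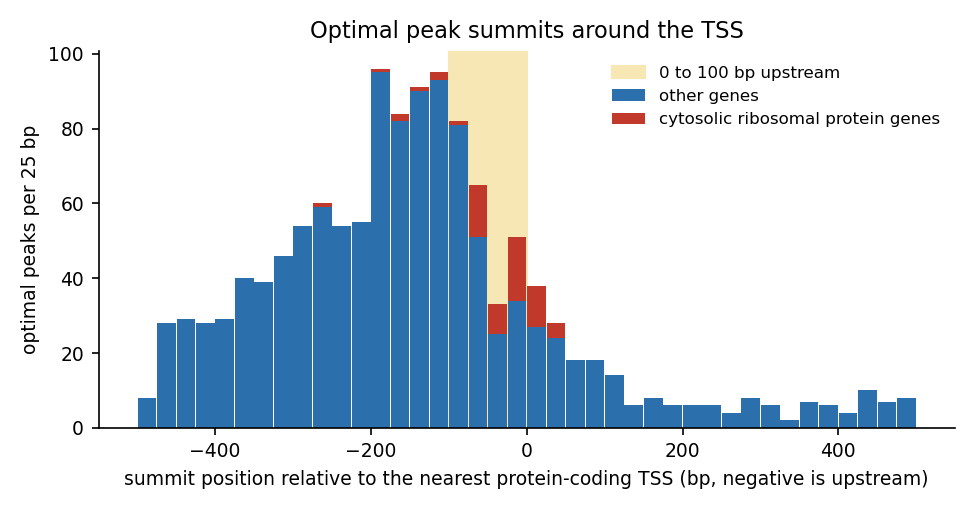
Optimal peaks (vertical axis, number per 25 bp) by summit position relative to the nearest protein-coding TSS (horizontal axis, bp, negative upstream). Red marks peaks whose nearest gene encodes a cytosolic ribosomal protein and blue all other genes. The shaded band is the 0 to 100 bp upstream window with 232 peaks, and red is concentrated in and just downstream of it.

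The window edge cut through a continuous distribution. At 100 bp upstream lay the peaks of Xe7 (signal 397), Dysb, a dysbindin of the synapse (323), the sugar transporter gene slv (282), Csk, an inhibitory kinase of Src (194), and CG4598 (181). Just outside it lay CG7668, 1 bp past the edge (337), gb at 102 bp (393) and, at 103 bp, sbb (671) and CG32425 (499.6), followed by ND-SGDH and cm. Signals on both sides of the edge overlapped.

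The signal of a peak is the authors' value, which orders peaks within a list but not between lists, and the read depth behind it is unknown. The 232 core promoter peaks had a median pooled signal of 281, with quartiles of 205 and 453 and a range from 158 to 2965. The median was 296 for the upstream peaks, 245 for peaks 1 to 500 bp downstream, 231 for the remaining optimal peaks and 248 for the whole set. In the pooled list the median of the core promoter peaks was thus close to that of the upstream peaks and above those of the other classes, and 10 of them exceeded 1000. Against the downstream peaks, the difference in median rank was -518, -335 and 30 in replicates 1, 2 and 3 (-274 ± 279, SD, n = 3), with p = 0.5 in a two-sided exact sign-flip permutation test over the replicates. Core promoter peaks ranked ahead in replicates 1 and 2 and slightly behind in replicate 3, a difference within the spread between replicates.

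The 2 strongest stood well apart from the other core promoter peaks. Ugalt, the transporter that carries UDP-galactose into the Golgi, had a signal of 2965 (X, 2703679 to 2704078), rank 3 of the optimal set, with its summit 36 bp upstream and ranks of 2, 3 and 2 in replicates 1, 2 and 3. The uncharacterised gene CG14100 had a signal of 2569 (3L, 19590441 to 19590809) 97 bp upstream, with ranks of 3, 4 and 11. Both were thus among the top 11 of 30000 peaks in every replicate.

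The next 8 had signals between 1016 and 1475. They belong to CG13390, Tcs5 (named for threonylcarbamoyl synthesis, a tRNA modification), Hrd3 (a membrane partner in degradation of endoplasmic reticulum proteins), RpS27, eIF6 (a factor in the making of the large ribosomal subunit), MFS18 (a transporter of the major facilitator superfamily), Alg3 (a mannosyltransferase of N-glycosylation) and l(2)gd1 (a regulator of endosomal sorting of Notch). CG13390 had a signal of 1475 and ranked 26, 37 and 41 in replicates 1, 2 and 3. Tcs5 had 1461 and ranked 28, 28 and 82. Replicate 3 gave the largest rank number, that is the weakest standing, for 6 of these 8, MFS18 and Hrd3 being the exceptions.

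The remaining 10 of the 20 strongest, with signals from 737 to 973, include genes of translation, tRNA modification and transport between compartments. Hpf1, the cofactor of poly(ADP-ribose) polymerase, had a signal of 973. Next came eEF1gamma, a subunit of a translation elongation factor (893), Elp6 of the tRNA-modifying Elongator complex (865), RpS10b (861), the Y-box RNA-binding protein gene yps (813) and RpL14 (811). The Golgi tethering complex gene fws (806), Mnat9 (766), the citric acid cycle gene Idh3g (738) and the nuclear import receptor gene Kap-alpha3 (737) completed the 20. The Elp6 peak ranked 258 in replicate 2, while no peak of replicates 1 and 3 held its summit.

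Genes for cytosolic ribosomal proteins made up the one large functional group among the lists examined. Of 88 such genes, 40 (45.5%) had a core promoter peak, against 1.65% of all 13945 protein-coding genes. The large subunit contributed 25 of 50 genes and the small subunit 15 of 38. Their median signal was 452, and their summits lay a median of 39.5 bp upstream, compared with 264 and 70.0 bp for the 192 core promoter peaks of other genes. The 2 groups overlapped widely in both measures, as the plot of signal by position shows.

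RpS27, a small-subunit protein, carried the strongest of these peaks, with a signal of 1203, a summit 7 bp upstream and ranks of 43, 48 and 128 in replicates 1, 2 and 3. RpS10b of the small subunit had a signal of 861, 4 bp upstream, with ranks of 158, 201 and 99. RpL14 of the large subunit had 811, 36 bp upstream, with ranks of 186, 134 and 439. RpL28, also of the large subunit, followed with 734, 62 bp upstream and ranks of 250, 203 and 306, so that all 4 ranked in the top 439 of each replicate. The weakest was RpL10Ab with a signal of 164 and ranks of 3363, 2974 and 4196. The closely similar pair RpS14a (244) and RpS14b (201) could share reads, and the sources used here do not say how reads that match both copies were placed.

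**Figure D2:**
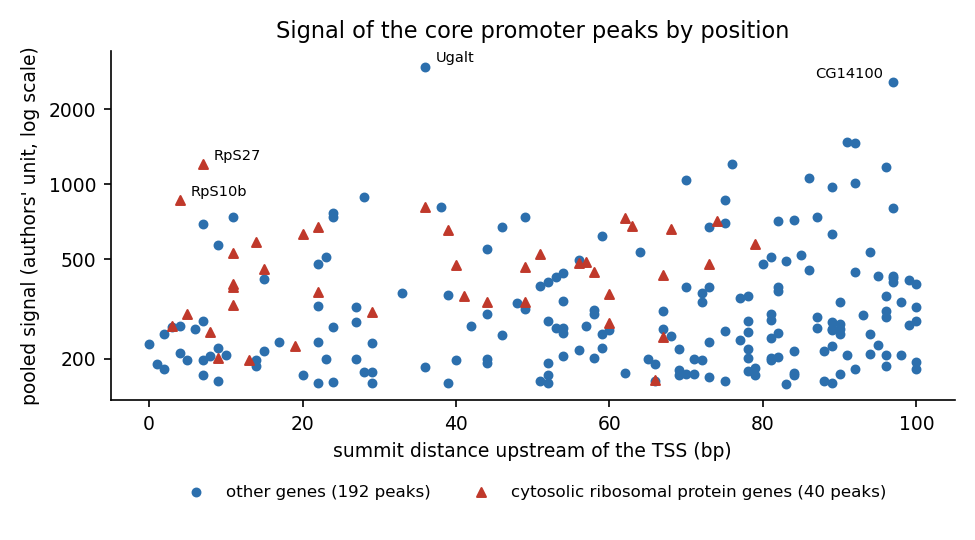
Pooled signal (vertical axis, authors' unit, log scale) of each of the 232 core promoter peaks against the distance of its summit upstream of the TSS (horizontal axis, bp). Red triangles are the 40 peaks of cytosolic ribosomal protein genes, which all lie within 79 bp of the TSS, and blue points are the 192 others.

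Most ribosomal protein genes outside the window had no optimal peak beside the TSS at all, but 15 had one just past it. Those 15 summits lay 4 to 39 bp downstream, and 5 more genes had a peak further upstream. With both sides of the TSS counted to 100 bp, 55 of the 88 genes had an optimal peak. For comparison, the median shift between the pooled summit of a core promoter peak and the replicate's own summit was 11.0 to 19.5 bp.

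The other lists held 0 to 3 genes with a core promoter peak each. Translation factors had 3 of 54 genes with a core promoter peak: eIF6 (signal 1178), eEF1gamma (893) and eEF1alpha1, the main elongation factor that brings aminoacyl-tRNA to the ribosome (324). Spliceosome and SR proteins had 2 of 40, the SR protein gene B52 (252) and the snRNP core gene SmD3 (199). General transcription factors and RNA polymerase II had 2 of 46, the polymerase subunits Polr2B (479) and Polr2J (265). Heat shock proteins and chaperones had 2 of 39, the mitochondrial chaperone Hsc70-5 (571) and the small heat shock protein Hsp26 (171). Kap-alpha3 was the only 1 of 29 nuclear pore and transport genes, and BEAF-32, which encodes a boundary element protein, the only 1 of 15 insulator protein genes (252).

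No core promoter peak was found at 76 mitochondrial ribosomal protein genes, 33 aminoacyl-tRNA synthetase genes, 89 oxidative phosphorylation genes, 48 proteasome genes, 31 Polycomb and Trithorax group genes, 30 Hox and segmentation genes, 180 chemoreceptor genes or 123 cuticle protein genes. None was found either at 14 glycolysis and lactate enzyme genes, of which 6 had an upstream peak. Across the 15 lists other than cytosolic ribosomal proteins, 11 of 846 genes (1.30%) had a core promoter peak, close to the 179 of 13011 genes in no list (1.38%). Both shares sit just below the 1.65% of all genes.

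Replicate lists held most of these peaks, replicate 3 the fewest. The optimal set was drawn from these same replicates, so this follows largely from the selection. The lists of replicates 1, 2 and 3 held 3205, 3201 and 3174 of all 3237 optimal peaks. A peak of replicate 1 held the summit of 228 of the 232, a peak of replicate 2 of 228 and a peak of replicate 3 of 217, and 22 were missing from at least 1 list. Where members lay close together, 1 replicate peak could hold both summits and give both its rank. Kap-alpha3 and Son thus shared rank 188 in replicate 1 and rank 359 in replicate 3. The counts, shares and ranks given here include such shared peaks. Among the 3237 strongest peaks of each replicate lay 87.1%, 94.0% and 69.4% of the core promoter peaks in replicates 1, 2 and 3 (83.5% ± 12.7, SD, n = 3). For the upstream peaks the shares were 86.5%, 90.6% and 82.4%. The core promoter share thus fell below the upstream share in replicate 3 and exceeded it slightly in the other two.

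In all 3 replicates together, 142 of the 232 (61.2%) were among the strongest 3237, against 60.4% of the optimal set. The share was 67.6% for upstream peaks. Ribosomal protein genes and other genes differed here: 36 of 40 core promoter peaks at ribosomal protein genes (90.0%) were among the strongest of all 3 lists, and 106 of 192 at other genes (55.2%). In replicate 3 alone the shares were 92.5% and 64.6%.

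**Figure D3:**
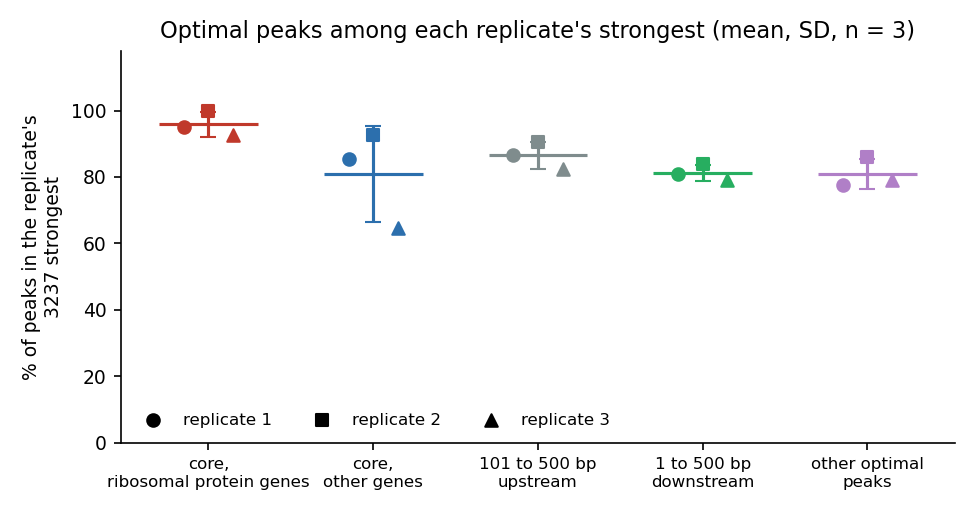
Share of optimal peaks (vertical axis, %) held by the 3237 strongest peaks of a replicate, by position class (horizontal axis). Symbols are the 3 replicates, horizontal lines the mean and error bars the SD; core promoter peaks of other genes fall from 92.7% in replicate 2 to 64.6% in replicate 3, while those of ribosomal protein genes stay at 92.5% or above.

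By median rank, core promoter peaks did not differ from upstream peaks beyond the spread between replicates. The median rank of core promoter peaks was 1052, 1142 and 1443 in replicates 1, 2 and 3, against 1216, 1145 and 1306 for upstream peaks. Peaks not found in a replicate have no rank there and were left out. In replicate 3, 217 of 232 core promoter peaks and 818 of 836 upstream peaks were found. The difference, core promoter minus upstream, averaged -9.83 ± 150.4 ranks (SD, n = 3), with p = 0.75 in a two-sided exact sign-flip permutation test over the replicates, whose smallest possible p is 0.25. The log2 ratio of the median signals averaged 0.01 ± 0.10 (exact permutation p = 0.75). Neither difference exceeded the spread between replicates, and each changed sign from replicate 1 to replicate 3. Without the ribosomal protein genes the rank difference was 249 ± 369 (SD, n = 3, exact permutation p = 0.5), opposite in sign and again within the spread.

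Core promoter peaks of ribosomal protein genes ranked ahead of those of other genes in every replicate. Their median ranks were 689, 663 and 555, against 1166, 1290.0 and 1968 for the other genes, a difference of -839 ± 503 (SD, n = 3). The exact permutation p was 0.25, the smallest that 3 replicates allow, and this comparison was not among those planned. The pooled signals derive from these same replicates, so the ranks are not independent support for the higher pooled median of these genes. Split by distance, the other genes' peaks 0 to 50 bp upstream and 51 to 100 bp upstream differed by 34.3 ± 115 ranks (SD, n = 3, exact permutation p = 0.75), less than the spread between replicates.

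Single peaks moved far more than the medians. The peak of koko ranked 160 in replicate 1, 8961 in replicate 2 and 382 in replicate 3. Ccz1, which encodes a subunit of the activator of the late-endosomal GTPase Rab7, ranked 923, 1033 and 23034. CG1662 ranked 1248, 2146 and 24056. The outlying rank was thus in replicate 2 for koko and in replicate 3 for Ccz1 and CG1662. The replicate 2 peak that held the koko summit had its own summit 63 bp downstream of the TSS. The pooled koko summit lay 82 bp upstream. The weakest members were CG31342 (signal 158), the heparan sulfate polymerase gene ttv (159) and the ciliary transport gene IFT52 (159.5), at the lower limit of the optimal set.

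The position itself repeated less well than the peak. Taking each replicate's own summit, 66.2%, 78.1% and 65.0% of the members found in replicates 1, 2 and 3 lay 0 to 100 bp upstream of the same TSS. Of the 210 members found in all 3, 83 (39.5%) stayed in the window in every replicate, and of the 38 at ribosomal protein genes 20 did. The distance between pooled and own summit was within 50 bp for 80.7%, 87.7% and 78.8% of peaks. When the window was applied to the 3237 strongest peaks of each replicate by itself, it held 308, 295 and 217 peaks (273 ± 49.2, SD, n = 3), and 47, 43 and 27 ribosomal protein genes.

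Below the optimal set, the window held 668 further peaks of the pooled list. They were weaker by construction, with a median signal of 69.6, and lay at 644 genes without a core promoter peak of their own. Of all 900 pooled peaks in the window 25.8% were in the optimal set, compared with 30.7% of the 2725 pooled peaks further upstream, to 500 bp, and 10.8% of the whole list of 30000. Of those 644 genes, 5 encode cytosolic ribosomal proteins.

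Many core promoter peaks lay between a pair of genes that start in opposite directions. Another protein-coding gene had its TSS within 1000 bp on the other side of the summit, running the opposite way, at 140 of the 232 peaks (60.3%). The same held for 26.0% of upstream peaks, counted in the same way from the summit. Upstream peaks have no protein-coding TSS within 100 bp by the rule, so their second TSS must lie further out. The shares of core promoter and upstream peaks are thus not like for like. Of all protein-coding genes, 36.2% have such a neighbour within 1000 bp of a TSS. Ribosomal protein genes have one at 53 of 88 genes (60.2%), and 27 of their 40 core promoter peaks did. The second TSS lay a median of 226 bp from the summit, and within 200 bp at 56 peaks.

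Some of these pairs include genes with known roles. RpL13, of the large ribosomal subunit, shares its upstream region with Dref, which encodes the protein that binds the DRE, and the Dref start lay 64 bp from the RpL13 summit. RpL14 faces Nelf-E, a subunit of the negative elongation factor that holds paused RNA polymerase II, at 91 bp. RpL28 faces the translation initiation factor gene eIF1 at 319 bp. At 15 peaks the divergent partner had a core promoter peak as well, as at Kap-alpha3 and Son or Elp6 and Dic1. Such peaks need not be separate: the pooled intervals of Kap-alpha3 and Son overlapped, as did those of Elp6 and Dic1. In replicates 1 and 3 the same peak held the summits of Kap-alpha3 and Son, so both took its rank. Peaks at divergent promoters did not differ in rank from the others beyond the spread between replicates (-180.2 ± 370.3 ranks, SD, n = 3, exact permutation p = 0.5).

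By annotation, 159 of the 232 summits (68.5%) lay in no gene, 56 inside another transcript of their own gene and 25 inside another gene, some in both. The TSS of a non-coding gene was nearer than the protein-coding one at 1 peak. Genes with a core promoter peak had a median length of 2342 bp (1419.5 bp for the ribosomal protein genes), against 6284 bp for genes with an upstream peak and 2166 bp for all protein-coding genes. A small nucleolar RNA gene lay inside 18 of the 230 genes (7.83%), 15 of them ribosomal protein genes, and inside 0.602% of all protein-coding genes. By chromosome, the members made up 4.49% of the optimal peaks on X and 6.48% to 8.65% on the long autosomal arms. On chromosome 4 they were 3 of 10, at RpS3A, gw and Mitf.

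The DNA at the summits was richer in G and C than that under peaks further upstream. In the 201 bp centred on the summit, the G+C content of core promoter peaks was 37.0% ± 7.66 (SD over 232 peaks), against 33.0% ± 6.38 over the 836 upstream peaks. From each replicate's own strongest peaks the same difference was 4.71, 3.94 and 4.85 percentage points (4.50 ± 0.490, SD, n = 3). It was 42.9% at ribosomal protein genes and 35.8% at other genes. Because the window is narrow, every core summit's 201 bp includes the TSS, and G+C content rises towards the TSS at all genes. Over the 300 bp from 250 before to 50 after the TSS, core promoters were poorer in both bases than annotated promoters. They had 18.7% C and 17.7% G, against 20.2% and 19.9% at all annotated promoters.

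Measured from the TSS, the genes outside the ribosomal protein group had a deeper dip in G+C content than annotated promoters as a whole, whose lowest value was 37.0%. It fell to 28.8% in the 40 bp next to the outer edge of the window, where all 19253 protein-coding TSSs had 37.2% to 38.1%. Ribosomal protein genes dipped further out, to 27.4% at 180 to 161 bp upstream, and rose to 53.0% in the last 20 bp. Genes with upstream peaks had 37.7% to 40.1% in those 40 bp and 49.0% at 60 to 41 bp upstream, where the other core promoters had 37.1%. In the first 20 transcribed bases of the ribosomal protein genes 50.5% of bases were T, against 29.4% at all TSSs. The sequences of CG13390 and Tcs5 shown above are of the A- and T-rich kind, and the RpL23A and RpL28 sequences of the other.

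**Figure D4:**
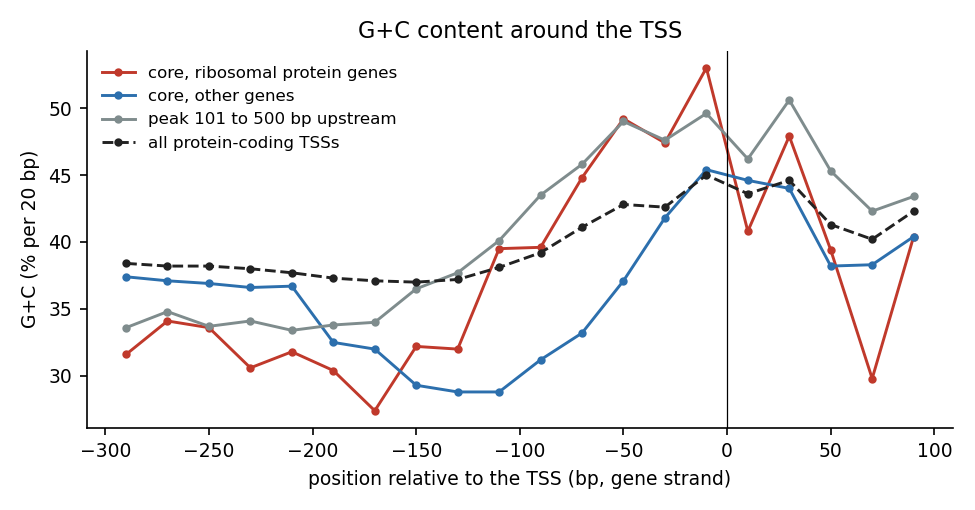
Mean G+C content (vertical axis, % per 20 bp) by position from the TSS on the gene strand (horizontal axis, bp). Red and blue are genes with core promoter peaks, grey genes with upstream peaks, and the dashed line all protein-coding TSSs; the blue line reaches its low of 28.8% just outside the 100 bp window and the red line its low of 27.4% further out.

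Among core promoter peaks, the share in the 3237 strongest varied with G+C content in opposite directions in replicates 2 and 3. By median rank, the highest of 3 G+C classes stood best in every replicate, at 824, 1104 and 1013 in replicates 1, 2 and 3. The lowest class had 1133, 1270 and 2026. Outside the ribosomal protein group, the highest class had 1262, 1850 and 1508 and the lowest 1153, 1291 and 2045. In replicate 3, the share of core promoter peaks among the 3237 strongest was 63.0% in the lowest of 3 classes of G+C content (81, 73 and 78 peaks), 64.4% in the middle and 80.8% in the highest, while in replicate 2 it was 97.5%, 94.5% and 89.7% and in replicate 1 it was 88.9%, 84.9% and 87.2%. For genes outside the ribosomal protein group, the shares from lowest to highest G+C content were 88.8%, 85.2% and 80.4% in replicate 1. They were 97.5%, 93.4% and 84.3% in replicate 2, and 62.5%, 62.3% and 70.6% in replicate 3. In this group the share was thus lower at high G+C content in replicates 1 and 2 and higher in replicate 3. Upstream peaks showed 81.9%, 83.8% and 80.8% in replicate 3 over the same G+C classes. The part of G+C content in the replicate difference was not tested.

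The DRE, Ohler motifs 1 and 7 and the E-box were in a larger share of core promoter windows than of upstream windows, while the TATA box and the conventional initiator were in a smaller share. The DRE, written TATCGATA, was in the 201 bp window of 30 of 232 peaks (12.9%), against 2.39% of upstream peaks and 0.153% of peaks in the remaining class. It was present at 32.5% of the ribosomal protein members and 8.85% of the others, and its median distance from the summit was 24.5 bp. Ohler motif 1 (GGTCACAC), the sequence bound by M1BP, was present at 7.33%, against 0.478% of upstream peaks. All shares count either strand, and at a promoter the window always holds the TSS region where these motifs lie.

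The promoters themselves give the closer reference. In the 300 bp from 250 before to 50 after the TSS, 15.5% of core promoters and 7.98% of all annotated promoters held a DRE, and 32.5% and 26.3% of those at ribosomal protein genes. For Ohler motif 1 the shares were 8.62% and 6.72%. For Ohler motif 7 (CANCNCTA) they were 28.4% and 14.6%, and for the E-box CAGCTG 27.6% and 17.9%. Ohler motif 7 was present in the windows of 17.2% of core promoter peaks and 8.25% of upstream peaks, and the E-box in 14.7% and 6.58%. At other genes' core promoter peaks, each of these was in 16.1% of windows. At least 1 of these 4 motifs was in 42.7% of core promoter windows and 15.9% of upstream windows. The TATA box letters TATAAA, less frequent in core promoter than in upstream windows, were more frequent against annotated promoters. Over the 300 bp they were in 50.9% of core promoters and 42.2% of all annotated promoters. The conventional initiator letters TCAGT were in 43.5% and 52.1%.

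The TCT initiator separated the ribosomal protein members from the rest. Its letters, CTTT with a pair of pyrimidines on each side, were on the gene strand between 10 bp before and 30 bp after the annotated TSS at 33 of 40 ribosomal protein members (82.5%) and 1 of 192 other members (0.521%). All TSSs had it at 1.89% and the 152 TSSs of ribosomal protein genes at 53.3%, a count that includes alternative starts. This window was set after a tolerance of 3 bp around the TSS had found the letters at 8 of 40 ribosomal protein members, none of the other members and 13.8% of ribosomal protein TSSs. The conventional initiator letters TCAGT, within 3 bp of the TSS, were found at 7 core promoters (3.02%), against 8.24% of all TSSs and 14.4% of those with an upstream peak. A TATA box (TATAAA) 45 to 20 bp upstream was found at 3.02%, against 7.77% of all TSSs.

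Of the further motifs, the short BEAF-32 site CGATA, which is contained in the DRE, was in 46.1% of core promoter windows and 24.8% of upstream windows. Ohler motif 6 (GTAT, then A or T, then TTT) was in 12.5% and 9.45%, and a heat shock element pair (GAANNTTC) in 8.19% and 5.02%. A TATAAA anywhere in the window was in 36.2% and 43.9%, GAGAG in 18.1% and 23.8%, TCAGT in 28.4% and 33.1%, and a run of 8 A in 11.6% and 14.7%. The downstream promoter element (a purine, then GACGTG or GTCGTG) was in 3.88% and 2.39%, the Zelda site CAGGTA in 3.45% and 3.23%, the X-box core TAGCAAC in 3.45% and 2.87%, and CACACACA in 2.59% and 1.67%. Among all 7-base words, ATCGATA, which overlaps the DRE, was in 20.3% and 4.78%, and CCGGAAA in 11.6% and 1.44%. The latter was at 37.5% of ribosomal protein members. These words were picked for their difference, so their shares are descriptions.

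**Figure D5:**
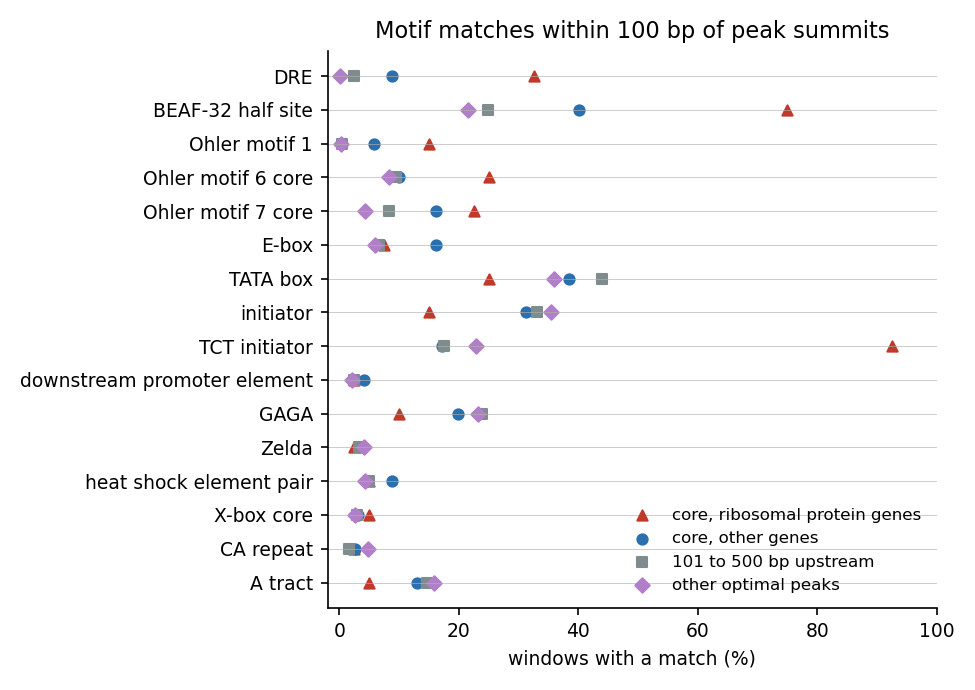
Share of 201 bp summit windows that hold a match on either strand (horizontal axis, %) for each of the 16 motifs searched (vertical axis). Red triangles are core promoter peaks of ribosomal protein genes, blue circles those of other genes, grey squares upstream peaks and purple diamonds the remaining optimal peaks; the TCT initiator reaches 92.5% and the DRE 32.5% in the first group.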

How the data were processed

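The 3 replicates were mapped to their lists by the replicate number in the labels. Coordinates are dm6 per the labels. Per the deposited notes, the replicate and pooled narrowPeak lists, of 30000 regions each, were called against 1 control, and the authors' optimal set was thresholded by irreproducible discovery rate. The sources used here do not give the aligner, peak caller, versions or threshold. The deposited signal per peak (column 7) ranked peaks within a list only, and the deposited −log10 q-value ordered ties. The optimal set is the 3237 strongest pooled peaks.

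A summit was the peak start plus the deposited offset, or the midpoint where the offset fell outside the peak (1 member), and it was assigned to the nearest TSS of 13945 protein-coding genes (Ensembl release 115) on 2L, 2R, 3L, 3R, 4 and X. Sequence came from the RefSeq copy of Release 6, and sequences to print were taken from the 132 members off arm 2R with no other transcript in the 100 bp upstream. A replicate's list held a peak when 1 of its own peaks held the pooled summit. The strongest such peak gave the rank, even where its own summit lay elsewhere or another member shared it. With a replicate left out, only optimal peaks held by the 3237 strongest peaks of both other replicates were kept. Exact sign-flip tests over the 3 replicates were two-sided. Those of all core promoter peaks against all upstream peaks, by rank and by signal, were planned. The other sign-flip comparisons were not planned. Shares of genes, peaks and motifs were described without a test, since peaks of 1 pooled list are not replicates, and the assignment was tested on simulated summits. Analyses used Python 3.11.15, pandas 2.3.3, numpy 2.4.6 and scipy 1.17.1.

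The members, 16 gene lists and 16 motifs were chosen with earlier results of these data known. The symbol pattern of the ribosomal protein list was widened after the peaks were seen, to include RpL37-1 and RpL37-2, and the wide TCT window was set after a tolerance of 3 bp had found few starts. Genes named are those of the 20 strongest members, the 4 strongest of each list, those next to the window edge, the weakest and those of largest rank spread. Divergent partners, RpL10Ab, RpL23A, RpS14a, RpS14b, gw, Mitf and RpS3A were named after their values were seen. Alternatives were other windows, the peak midpoint, the stronger 1618 peaks, 1 peak per set of coordinates, each replicate left out, a nearer match of summits, a divergent distance of 500 bp and a shorter sequence window.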

Additional observations from a re-analysis of the deposited data

How the results depend on the processing

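The number of core promoter peaks followed the window and the set: 85 with 0 to 50 bp upstream, 418 with 0 to 150 bp, 146 among the stronger 1618 optimal peaks and 149 to 190 with a replicate left out, where the summit had to lie in 1 of the 3237 strongest peaks of both other lists (153 without replicate 1 and 149 without replicate 2). The G+C difference from upstream peaks stayed positive, at 6.10 points with 0 to 50 bp, 2.47 with 0 to 150 bp, 6.58 with 50 bp on each side of the summit and 4.06 to 4.82 with a replicate left out. Ribosomal protein genes numbered 25 with 0 to 50 bp and 36 to 38 with a replicate left out. Among alternatives added after the data were seen, they numbered 39 without RpL37-1 and RpL37-2. The median signal was 394 in the stronger peaks and 312 to 387 with a replicate left out. With a replicate left out, the pooled summits and signals still drew on it. Divergent neighbours fell to 51.3% within 500 bp. The rank difference changed sign with the peak midpoint (89.2), the stronger peaks (128), replicate summits within 100 bp (22.2) and, added later, without ribosomal protein genes (249), and ran from -33.0 to 50 with a replicate left out. The log2 signal ratio changed sign in the same settings (-0.05, -0.13, -0.00352 and -0.14) and ran from -0.05 to 0.04. No exact p of these differences could pass 0.05, so their signs carry no call. The causes were not tested. Of 160 motif shares recomputed, 138 stayed within the exact binomial interval of the main share and 22 moved, most of them with the shorter sequence window. Read depth is unknown, the control alignment was not analysed here, and counts of peaks and genes are the only limit on precision that could be stated.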
